A study of Mus musculus with 6 samples.

Results

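The regions described here are 15340 stretches of open chromatin that were called as peaks in both Foxr2 alone libraries and not in the Foxr2 p53LOF library. They are the peaks of Foxr2 alone replicate 1 on chromosomes 1 to 19 that overlapped a peak of Foxr2 alone replicate 2 by at least 1 bp and no peak of Foxr2 p53LOF, and are called members in the text. They made up 11.6% of the 132707 autosomal peaks of replicate 1, and 15.8% of the 97138 autosomal peaks of replicate 2 touched a member. The members were chosen by these peak calls, so their absence from the p53LOF list is the rule and not a result.

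The study used 10x Multiome, which reads RNA and open chromatin from the same nucleus, on brain tissue of C57BL/6J mice electroporated in utero at E12.5 into the ganglionic eminences, the ventral germinal zones of the forebrain. Foxr2 alone animals received Foxr2 on piggyBac vectors driven by the ubiquitous CAG promoter, with GFP in the same vector. A luciferase vector (Akaluc) and a helper plasmid for the transposase were given with it in both genotypes, and tissue was collected once animals had neurological signs. Only progenitors that took up the plasmids were altered, so the tissue also holds host cells. Foxr2 p53LOF animals carried the same overexpression together with CRISPR/Cas9 disruption of p53 (Trp53). There were 2 Foxr2 alone libraries and 1 Foxr2 p53LOF library, and the age of the animals is not given in the labels. Counts were analysed for Foxr2 alone replicate 1 (8342 kept nuclei and 118436178 peak counts over all barcodes) and for Foxr2 p53LOF (8504 kept nuclei and 102529894 peak counts). The counts of replicate 2 (1650 barcodes) were not analysed here, and only its peak list was used. With the counts of 1 library of each genotype, no comparison between genotypes could be tested, and the intervals given are exact 95% intervals that cover counting error only. The libraries shared 140 barcode sequences between replicate 1 and p53LOF and 19 between the replicates.

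An open chromatin peak marks DNA that the Tn5 transposase can reach because nucleosomes have been moved aside, as happens at promoters and at enhancers. Promoters tend to be open in many cell types, whereas distal enhancers differ strongly between cell types. Projection neurons of the cortex are glutamatergic, those of the striatum are GABAergic and respond to dopamine, and interneurons are GABAergic cells that act locally.

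The nuclei of replicate 1 were grouped by RNA. Cortical-like nuclei numbered 1413, striatal-like 2499, other neurons 342 and glia 3601, of which 3025 were oligodendrocyte-like. The neuron names were given from the RNA of fixed markers, so sums of the same markers describe the classes and do not check the names. In the striatal-like nuclei all 11 striatal markers reached 10 CPM (counts of a gene or peak per 1e+06 counts of the class) and summed to 5750 CPM, against 576 CPM in cortical-like nuclei. The 10 cortical markers summed to 1030 CPM in cortical-like nuclei and included Slc17a7, the vesicular glutamate transporter, as the highest, against 312 CPM in striatal-like nuclei, where Tle4 gave most of the sum. The astrocyte-like nuclei had a higher sum of the cortical list (1200 CPM), led by Rorb and Tle4, so this sum alone does not mark neurons. All 11 striatal markers also reached 10 CPM in the astrocyte-like nuclei, where they summed to 964 CPM. The other neurons were mostly a cluster of 308 nuclei led by Sst, Vip and Npy, peptides of interneurons. The smaller striatal-like cluster of 455 nuclei was led by Slc5a7, the choline transporter of cholinergic neurons. All 11 striatal markers were raised there, as in the main striatal-like cluster. Whether this class was made of projection neurons alone was not tested. The vectors were sparse in replicate 1. GFP, which the Foxr2 and Akaluc vectors both carry, had at least 1 UMI in 546 of 8342 nuclei (6.55%), with 8.04% of striatal-like, 6.58% of cortical-like and 6.08% of glial nuclei, beside 3.09% of immune nuclei. As a level, GFP was at 28.8 CPM in striatal-like nuclei (median 6360 UMIs per nucleus) and 27.2 CPM in immune nuclei (median 1132 UMIs). It was higher in glia (84.5 CPM) and lower in cortical-like nuclei (10.7 CPM). Foxr2 itself had 0 UMIs in the 421 immune nuclei, 55 in striatal-like nuclei and 50 in glia. In p53LOF GFP was found in 58.8% of nuclei, with 68.1% of glia, 52.1% of neurons and 35.1% of immune nuclei. Its level there was 583 CPM in glia, 216 CPM in immune nuclei and 77.6 CPM in neurons. Neurons thus lay below immune nuclei as a level. RNA counted at mouse Foxr2 gave 144 UMIs in replicate 1 (3.62 CPM) and 2623 in p53LOF (42.9 CPM), and Trp53 RNA (13 and 33.6 CPM) cannot show the disruption of the gene. Most nuclei behind the members therefore had no vector RNA detected at this depth.

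The p53LOF library was of another make-up, with 0 striatal-like nuclei, 13 cortical-like nuclei and 2264 other neurons. Its other neurons lay almost wholly in clusters of their own, so that 34 nuclei of replicate 1 lay in the p53LOF cluster of 1814 neurons. Because peaks were called on each library as a whole, fewer neurons of a type in p53LOF and less open chromatin per neuron cannot be told apart as the reason that a member was missing from that list.

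The central 300 bases of leading members of the cortical-like, striatal-like and glial classes are shown first, because they are among the most open regions of each class within the set. They are from the members with the highest CPM in a class whose central stretch held no annotated exon, which passed over higher members at gene starts for glia, and the Pde1b stretch was added because its nearest gene is on the striatal list. They were read from GRCm38.p6 (mm10) on the plus strand, and capitals mark the letters of any of the 10 motifs searched. The cortical stretch lies at chr7:97345459-97345758 in an intron of Kctd21, the first striatal stretch at chr8:127214674-127214973 in an intron of Pard3, a cell polarity gene, and the second striatal stretch at chr15:103500755-103501054 between genes, with Pde1b, a calmodulin-dependent phosphodiesterase of striatal neurons, as its nearest gene. The stretch of glia lies at chr1:86505593-86505892 between genes near Ptma.
Kctd21 (cortical): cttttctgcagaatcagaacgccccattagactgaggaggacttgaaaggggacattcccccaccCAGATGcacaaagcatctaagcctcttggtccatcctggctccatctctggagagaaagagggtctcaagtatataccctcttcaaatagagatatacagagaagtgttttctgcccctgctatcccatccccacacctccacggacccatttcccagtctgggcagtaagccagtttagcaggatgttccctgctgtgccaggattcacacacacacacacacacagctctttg
Pard3 (striatal): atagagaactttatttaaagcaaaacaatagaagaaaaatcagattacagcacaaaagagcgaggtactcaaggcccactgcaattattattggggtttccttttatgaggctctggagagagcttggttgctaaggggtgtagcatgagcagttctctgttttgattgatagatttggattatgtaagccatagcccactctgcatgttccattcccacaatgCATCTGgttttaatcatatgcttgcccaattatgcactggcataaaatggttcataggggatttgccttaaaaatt
Pde1b (striatal): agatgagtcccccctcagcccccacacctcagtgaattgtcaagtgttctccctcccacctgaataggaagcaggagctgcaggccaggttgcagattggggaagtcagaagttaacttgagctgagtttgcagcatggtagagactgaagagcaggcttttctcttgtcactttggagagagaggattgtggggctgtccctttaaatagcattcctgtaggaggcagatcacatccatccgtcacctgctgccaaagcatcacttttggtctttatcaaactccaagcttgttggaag
Ptma (glia): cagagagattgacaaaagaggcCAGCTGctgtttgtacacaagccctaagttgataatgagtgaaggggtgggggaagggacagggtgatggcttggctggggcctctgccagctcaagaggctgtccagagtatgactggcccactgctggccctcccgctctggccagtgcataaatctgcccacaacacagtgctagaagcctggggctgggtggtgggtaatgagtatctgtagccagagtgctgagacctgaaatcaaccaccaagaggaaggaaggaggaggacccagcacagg
The Kctd21 and Pard3 stretches each held 1 NeuroD-type E-box (CAGATG, or CATCTG on the other strand), and the Ptma stretch held 1 CAGCTG E-box. The Pde1b stretch held none of the motifs searched.

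The members were mostly regions open in neurons. Over all neuron and glia nuclei of replicate 1 the members held 6762711 counts, of which 92.4% (95% interval 92.42 to 92.46%) came from neurons, against 68.1% for the other peaks of the same library. Striatal-like nuclei alone gave 66.0% of the member counts, cortical-like nuclei 22.6%, other neurons 3.88% and glia 7.56%. For peaks found in all 3 lists these shares were 34.8%, 22.0%, 6.24% and 36.9%. The peaks that only replicate 1 had were also neuronal (90.3% of counts), but they were split more evenly between striatal-like (43.7%) and cortical-like nuclei (40.8%).

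**Figure D1:**
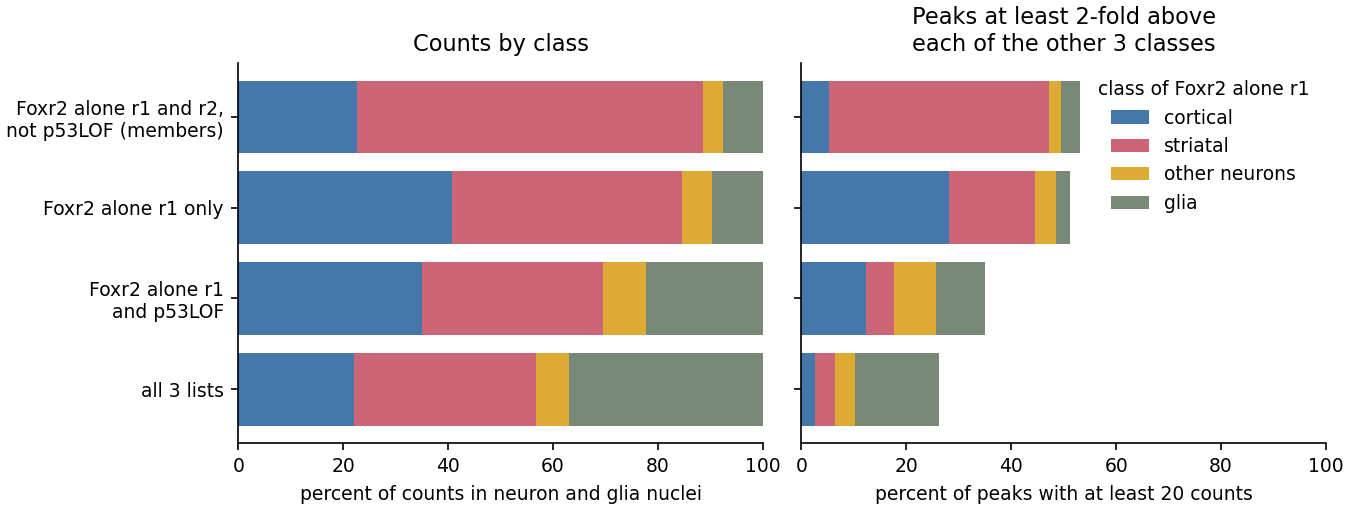
Left, bars give the percent of peak counts of neuron and glia nuclei of Foxr2 alone replicate 1 (r1) that came from each class, for 4 sets of r1 peaks. Right, bars give the percent of peaks with at least 20 counts that were at least 2-fold above each of the other 3 classes in CPM. Striatal-like nuclei held 66.0% of the counts of members, and 42.0% of members were led by them.

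Seen from each class, the members took 13.8% of the autosomal peak counts of striatal-like nuclei, 7.20% of those of cortical-like nuclei and 5.15% of those of other neurons. In glia they took 2.05%, with oligodendrocyte-like nuclei at 2.02%, oligodendrocyte precursor-like nuclei at 2.08% and astrocyte-like nuclei at 2.19%. Immune nuclei, which are neither neurons nor glia of this lineage, had 2.25%, so the glial share was no higher than in a class with no neural identity. Depth differed between these classes, with a median of 7576 peak counts in a glial nucleus and 15526 in a neuron. The clusters within a class varied more than counting error. The main striatal-like cluster had 14.7% and the cluster led by Slc5a7 8.99%, while both cortical-like clusters lay close together at 7.04% and 7.51%.

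**Figure D2:**
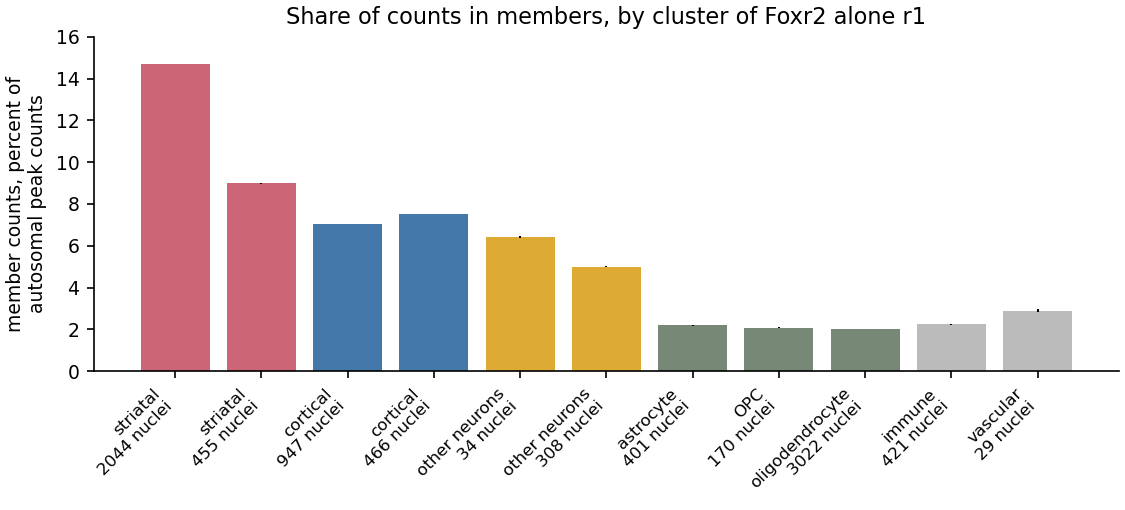
Bars give member counts as a percent of all autosomal peak counts, for each cluster of at least 20 named nuclei in Foxr2 alone replicate 1, with exact 95% intervals that are mostly narrower than the line. The 2 striatal-like clusters stand at 14.7% and 8.99% and the glial clusters at about 2%.

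Peak by peak, 15335 members had at least 20 counts and were compared between classes in CPM, with 0.1 CPM added to each value. Of these, 12971 (84.6%) were at least 2-fold higher in neurons than in glia, beside 59.2% of all 132588 peaks tested, and 826 (5.39%) were at least 2-fold higher in glia, beside 14.5%. The median difference on the log2 scale was 3.47 for members and 1.69 over all peaks. Between the main neuron classes, 7586 members (49.5%) were at least 2-fold higher in striatal-like than in cortical-like nuclei, beside 17.9% of all peaks. The reverse held for 1748 members (11.4%), beside 29.8%. Asked to stand at least 2-fold above each of the other 3 classes, 6437 members (42.0%) led in striatal-like nuclei, beside 12.9% of all peaks. In cortical-like nuclei 800 members (5.22%) led, beside 13.0%, in other neurons 338 (2.20%), beside 4.14%, and in glia 566 (3.69%), beside 9.18%. The remaining 7194 had no leading class.

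The overlap with the second peak list bore strongly on the balance between the neuron classes. Among the replicate 1 peaks that no p53LOF peak overlapped, replicate 2 covered 45.3% of the 14207 that led in striatal-like nuclei but 5.71% of the 14000 that led in cortical-like nuclei. Without the overlap with replicate 2 the set would hold 62299 peaks, and the order would turn: 22496 (36.1%) would be at least 2-fold higher in cortical-like nuclei, beside 29.8% of all peaks, and 17970 (28.8%) in striatal-like nuclei, beside 17.9%. Against all peaks both shares would then be higher, whereas for the members the cortical share was lower. Which cells replicate 2 held was not tested here. The lead of neurons over glia did not turn, with 86.1% of those 62299 peaks with enough counts at least 2-fold higher in neurons.

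The members were of middling strength. Their median was 344 counts, between 201 for peaks only replicate 1 had and 538 for peaks in all 3 lists. Among peaks with 200 counts or more but fewer than 400 the members had 89.8% of their counts in neurons and peaks in all 3 lists 66.0%. With 400 counts or more these shares were 94.0% and 62.8%. Peaks that only replicate 1 had were at 90.6% and 89.6% in these bands and at 86.1% under 50 counts. The neuronal lean at a given strength was thus not particular to the members. In the 87 members under 50 counts the share was 73.8%, no higher than the 76.8% of peaks in all 3 lists, so the neuronal lean was not seen in the weakest members.

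At the borders of the rule, 42 members overlapped a replicate 2 peak by 10 bp or less, and 33 peaks of replicate 1 stayed out with a replicate 2 peak less than 10 bp away. Likewise 32 members lay less than 10 bp from a p53LOF peak, and 20 peaks were left out for an overlap of 10 bp or less with such a peak. The median overlap with replicate 2 was 821 bp of a median peak width of 886 bp. The median distance to the nearest p53LOF peak was 6024.5 bp, and 1977 members (12.9%) had a p53LOF peak within 1000 bp. Of those 1977, 71.7% were at least 2-fold higher in neurons than in glia, against 86.5% of the other 13363.

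Most members were distal. Of all 15340, 1334 (8.70%) lay within 1000 bp of an annotated transcript start, against 20% of the other replicate 1 peaks and 32.6% of peaks in all 3 lists. Peaks that only replicate 1 had were at 7.31%, so distal position was not particular to the members. A further 1499 (9.77%) overlapped an exon, 6972 (45.4%) an intron, and 5535 (36.1%) lay between genes. The median distance to the nearest start was 17961 bp, against 11257 bp for the other peaks and 18675 bp for peaks only replicate 1 had. Members led by glia lay closer to a start (median 10486.5 bp) than those led by striatal-like nuclei (21822 bp) or cortical-like nuclei (19207.5 bp), and 26.5% of them had a p53LOF peak within 1000 bp against 9.32% of those led by striatal-like nuclei. No chromosome stood out, with members making up between 10.3% (chromosome 19) and 13.0% (chromosome 12) of its replicate 1 peaks.

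The peak in Kctd21 had 992 counts in cortical-like nuclei (46.1 CPM, 95% interval 43.2 to 49.0) and 285 in striatal-like nuclei (8.69 CPM), with 8.13 CPM in other neurons and 0.591 CPM in glia. The peak in Lingo1, a membrane protein that limits axon growth and myelination, had 35.3 CPM in cortical-like nuclei against 2.56 CPM in striatal-like nuclei and 5.40 CPM in glia, and its nearest p53LOF peak was 393 bp away. The other cortical leaders lay near Ide, an insulin-degrading protease (35.7 CPM), and in Mypn (34.9 CPM).

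Of the striatal leaders, the peak in Pard3 had 1930 counts in striatal-like nuclei (58.9 CPM, 95% interval 56.3 to 61.6) and 38 in cortical-like nuclei (1.76 CPM). The peak 1676 bp from the start of Pde1b had 57.0 CPM in striatal-like nuclei, 3.53 CPM in cortical-like nuclei, 2.13 CPM in other neurons and 0.670 CPM in glia. The peak in an intron of Majin, with Gpha2 as its nearest gene, had 56.3 CPM, and the peak in 6330411D24Rik, 287179 bp from the nearest start (Gm13052), had 53.6 CPM. In these 4 the next highest class reached no more than 8.52 CPM, in other neurons at Pard3.

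Among the leaders of the other neurons, the peak 43187 bp from Rtp4 was the most confined, with 152 counts in other neurons (29.4 CPM, 95% interval 24.9 to 34.5) and 0.279, 0.336 and 0.670 CPM in cortical-like nuclei, striatal-like nuclei and glia. The peak in Csmd1 had 27.7 CPM in other neurons and at most 2.65 CPM elsewhere. Those in 6430584L05Rik (30 CPM) and 9330188P03Rik (28.9 CPM) also had 13.7 and 11.2 CPM in cortical-like nuclei. The leaders of glia lay at gene starts in 3 of 4 cases. The peak at Psat1, an enzyme of serine synthesis, had 62.8 CPM in glia against 2.41 to 6.97 CPM in the neuron classes, and ended 24 bp from a p53LOF peak. The peaks at Klhl24 (61.8 CPM in glia) and Gse1 (60.2 CPM) were also open in neurons, at 28.9 to 30.4 and 15.1 to 18.7 CPM. The intergenic peak near Ptma had 56.6 CPM in glia and 2.01 to 4.18 CPM in neurons.

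**Figure D3:**
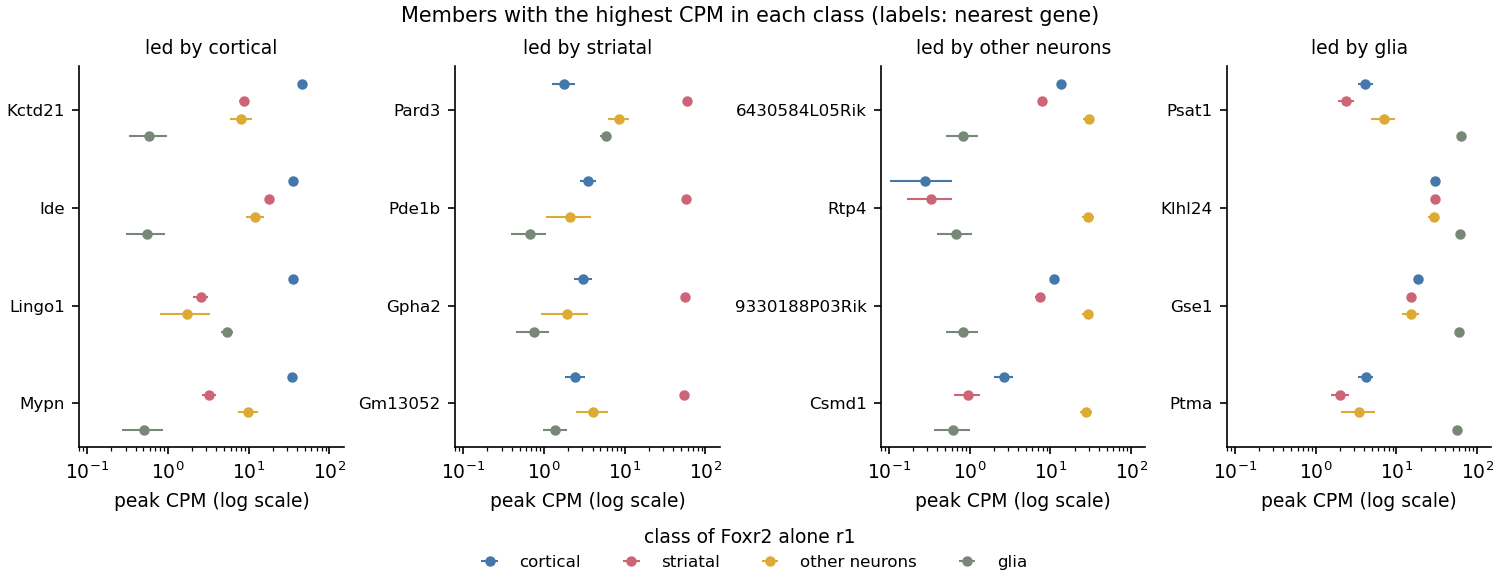
Points give CPM of the 4 members with the highest CPM in each class among members at least 2-fold above each of the other 3 classes, in the 4 classes of Foxr2 alone replicate 1, on a log axis with exact 95% Poisson intervals. The striatal leaders stand at 53.6 to 58.9 CPM in striatal-like nuclei, with every other class at 8.52 CPM or less.

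The 10 members with the most counts included regions open in all 4 classes and regions open mainly in neurons. The first was the start of Pogz, a chromatin regulator, with 4996 counts and 50.1, 45.8, 57.9 and 83.5 CPM in cortical-like nuclei, striatal-like nuclei, other neurons and glia. The starts of Ecpas, Klhl24, Midn and 5033430I15Rik and a peak 9422 bp from Dhx37 were likewise open in all 4 classes, at 24.1 CPM or more in each. By contrast St8sia1, a ganglioside synthase, had 49.5 to 62.6 CPM in the neuron classes and 5.05 CPM in glia at its start. The members at Ddrgk1 (59.1 CPM in striatal-like nuclei), in Syt7, a synaptotagmin (53.5 CPM), and in Igsf21 near Gm13027 (58.8 CPM) had 1.70, 0.828 and 0.907 CPM in glia. They had 37.3, 36.9 and 45.2 CPM in cortical-like nuclei but 3.87, 12.8 and 15.1 CPM in other neurons, so they were not open alike in all neurons.

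The letters of 10 motifs were searched on both strands of the central 300 bases of every peak, as a description. The homeodomain letters TAATTA were in 11.5% of members and 7.51% of all replicate 1 peaks, and MEF2 letters (CTAAAAATA) in 2.07% and 1.47%. AP-1 letters (TGANTCA) were in 18.3% and 17.0%, the NeuroD-type E-box (CAGATG) in 25.3% and 26.7%, the CAGCTG E-box in 20.5% and 22.6%, and SOX letters (AACAAAG) in 7.28% and 7.56%. The letters of CTCF (AGGGGGCG) were in 1.18% of members against 3.03% of all peaks, those of ETS factors (CCGGAAGT) in 0.241% against 1.07%, those of CREB (TGACGTCA) in 0.28% against 0.748% and those of RFX factors (GTTGCCATG) in 0.808% against 1.08%. Peaks that only replicate 1 had gave 0.828%, 0.23%, 0.275% and 0.828% for these, so the low shares were not particular to the members. They had 2.1% for MEF2, 9.51% for TAATTA and 31.4% for the NeuroD-type E-box. Peaks in all 3 lists had 5.75% for CTCF and 2.16% for ETS letters. The median GC content was 46.3% in members and 48.3% over all peaks, and promoters were fewer among members. Leaving out peaks within 1000 bp of a start gave 11.9% against 8.52% for TAATTA, 0.228% against 0.346% for ETS, 1.06% against 1.85% for CTCF and 0.278% against 0.41% for CREB letters. For AP-1 the order turned, to 18.6% against 18.9%.

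Motif letters also differed between members with different leading classes. The NeuroD-type E-box was in 36.2% of members led by cortical-like nuclei and 21.7% of those led by striatal-like nuclei, beside 40.4% and 21.5% of the other replicate 1 peaks with the same leading class. The CAGCTG E-box was in 42.9% of those led by other neurons, beside 41.1%, and the SOX letters in 16.6% of those led by glia, beside 15.8%, so these shares went with the leading class in members and other peaks alike. AP-1 letters were in 23.6% of members led by striatal-like nuclei, below the 34.4% of the other replicate 1 peaks with the same leading class, and TAATTA was in 13.4% and 11.4% of these.

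The nearest genes were 8112 in number, and 4813 of them had a single member. The gene nearest to most members was Rbfox1, a neuronal splicing factor, with 35 of its 156 replicate 1 peaks (22.4%), 25 of them within the gene. Its members had summed CPM of 365 in striatal-like nuclei, 209 in cortical-like nuclei, 132 in other neurons and 11.2 in glia. Dlg2, a scaffold of the postsynaptic density, had 32 members (23.9%) and 224, 166, 127 and 27.2 CPM in the same order. Gria1, an AMPA receptor subunit, had 20 members (33.3%), of which 6 lay within the gene, and 169, 116, 94.5 and 13.9 CPM.

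Celf2, an RNA-binding protein, and Nrxn3, a presynaptic adhesion molecule, had 18 members each, all within the gene, with summed CPM of 200 and 164 in striatal-like nuclei and 4.38 and 3.94 in glia. Erc2, a protein of the presynaptic active zone, Rbms3, and the noncoding genes Gm13211 and Gm43166 had 17 each. Of the Gm43166 members 12 lay within Galnt17 and 3 within Caln1, so the nearest start was not that of the gene that holds them. Auts2, the calcium channel gene Cacna1e and the delta glutamate receptor gene Grid1 had 16 each. For Rbms3 38.6% and for Gm43166 37.8% of the replicate 1 peaks were members. All 12 genes had a higher summed member CPM in striatal-like nuclei than in any other class and their lowest in glia. The members as a whole had the same order. They took 13.8% of the autosomal peak counts of striatal-like nuclei, 7.20% of cortical-like nuclei, 5.15% of other neurons and 2.05% of glia. The order was therefore that of the set and not particular to these genes.

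**Figure D4:**
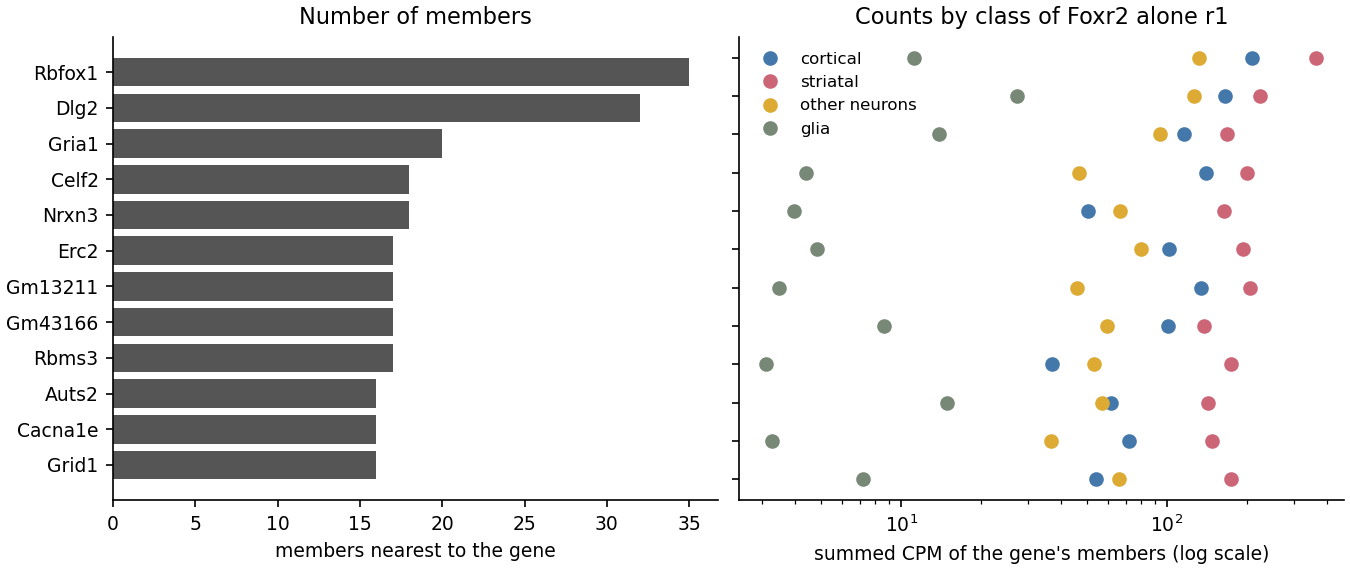
Left, bars give the number of members nearest to each of the 12 genes with most members. Right, points give the summed CPM of these members in 4 classes of Foxr2 alone replicate 1 on a log axis, with 365 CPM in striatal-like nuclei and 11.2 CPM in glia for Rbfox1.

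For lists of genes, a member was counted to the gene with the nearest transcript start, at any distance. The striatal projection neuron list had members counted to 20 of 22 genes. These were 76 of its 393 replicate 1 peaks (19.3%, against 11.6% over all genes), with a summed CPM of 1110 in striatal-like nuclei, 232 in cortical-like nuclei, 158 in other neurons and 46.0 in glia. Rarb, a retinoic acid receptor, had 11 members with 160 CPM in striatal-like and 49.7 in cortical-like nuclei. Foxp1, a forkhead factor, had 10 members with 106 and 25.1 CPM. Penk, the precursor of enkephalin, had 7 members, which was 50% of its 14 peaks, with 96.7 and 15.7 CPM. The phosphodiesterase gene Pde10a had 7, the transcription factor genes Meis2 and Six3 had 6 each, and the adenylyl cyclase gene Adcy5 had 5.

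The cortical projection neuron list had 40 members of 297 peaks (13.5%), and they too were highest in striatal-like nuclei (452 CPM, against 142 CPM in cortical-like nuclei). Of these members 13 had Tle4 as their nearest gene, 7 Foxp2 and 6 Bcl11b, at median distances of 286774, 10795 and 24955 bp from a start. The RNA of these transcription regulators was higher in the striatal-like nuclei (259, 579 and 304 CPM) than in the cortical-like nuclei (171, 131 and 109 CPM). Whether these members act on them was not tested. The interneuron list had 21 of 181 peaks (11.6%), with 6 at Reln, which encodes reelin. The list of activity-regulated genes had 19 of 156 (12.2%), with 6 at Nptx2, a synaptic pentraxin. The glia list had 14 of 250 (5.60%) and no gene with 5 members, and its members too were highest in striatal-like nuclei (76.0 CPM, against 55.9 CPM in glia).

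Receptor and channel lists were read against the same 11.6% of peaks over all genes. Members were again counted to the nearest start, at median distances from 27169 bp (Kcnma1) to 321764 bp (Grm7) for the genes named. The glutamate receptor list stood highest with 91 of 421 peaks (21.6%), which had 963 CPM in striatal-like nuclei, 500 CPM in cortical-like nuclei and 45.2 CPM in glia. Gria1 had 20, the NMDA receptor subunit gene Grin2a 16, and the metabotropic receptor gene Grm7 13, followed by Grm5, Grik3 and Grik4 with 5 each. The GABA-A receptor list had 27 of 184 (14.7%), of which 9 lay at Gabrg3. The potassium channel list had 69 of 516 (13.4%), with 9 at Kcnma1, 7 at Kcnq5, 6 each at Kcnh1 and Kcnk2 and 5 each at Kcnd2 and Kcnip4. The sodium and calcium channel list had 65 of 427 (15.2%), with 16 at Cacna1e, 8 at Cacna1c, 7 at Cacna1d and 6 at Cacna2d3. The synaptic adhesion list had 127 of 912 (13.9%), led by Nrxn3 with 18, Cntn4 with 15 and Cntnap2 and Lrp1b with 14 each, and then Dlgap2 with 13, Cadm2 with 10, Cntn5 and Lrrtm1 with 7, Csmd1 and Ptprd with 6 and Lrrtm3 with 5. As a share of the gene's own peaks, Kcnip4 (8.93%), Cacna1c (10.1%), Csmd1 (9.52%) and Ptprd (7.32%) were below 11.6%. The other genes named in these lists were above it, with Nrxn3 at 14.4% of 125 peaks. Genes were named only with at least 5 members, so those with few peaks, such as Grm5 with 19, had to be above it.

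The RNA of the nearest genes was not used to choose the members. Within replicate 1, genes nearest to members led by glia had a median log2 ratio of neuron to glia RNA of -1.04, against -0.02 over all 11783 genes with 10 CPM in a class. For members led by striatal-like nuclei the median log2 ratio of cortical-like to striatal-like RNA was -0.13, and for members led by cortical-like nuclei it was 0.34, against -0.03 over all genes. The other replicate 1 peaks with the same leading classes gave -0.61, -0.12 and 0.16.

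Between the genotypes, RNA was compared in all neurons (4254 nuclei in Foxr2 alone replicate 1 and 2277 in p53LOF) for genes with at least 10 CPM in 1 library, with 1 CPM added. Of 365 genes nearest to 5 or more members, 83 (22.7%) had at least 2-fold lower RNA in p53LOF neurons, beside 18.1% of all 10601 genes tested. At least 2-fold higher RNA was found for 29 (7.95%), beside 12.8%. The median log2 difference was -0.15 for these genes and -0.05 over all genes. A comparison of only the other neurons of both libraries was added after the data were seen. Of 356 genes 41 (11.5%) were lower, beside 15.6%, and 33 (9.27%) were higher, beside 8.16%. The excess of lower genes was thus not seen without the striatal-like and cortical-like nuclei. These other neurons were not matched for type. The cluster led by Sst held 308 nuclei of replicate 1 and 8 of p53LOF, and the largest p53LOF cluster 34 and 1814. For genes nearest to at least 1 member the share with lower RNA was 16.7%, below that of all genes. Their share with higher RNA was 13.9%, above the 12.8% of all genes.

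**Figure D5:**
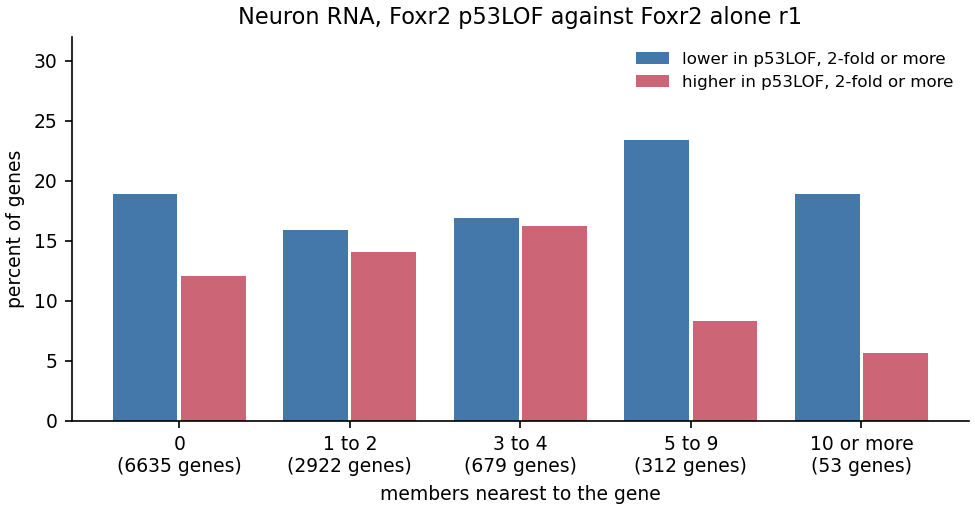
Bars give the percent of genes with RNA at least 2-fold lower or higher in p53LOF neurons than in neurons of Foxr2 alone replicate 1, by the number of members nearest to the gene. Genes with 5 to 9 members had 23.4% lower and 8.33% higher, while genes with 10 or more members and genes with none both had 18.9% lower, and genes with 1 to 2 and 3 to 4 members 15.9% and 16.9%.

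By list, counts are to be read against the 18.1% lower and 12.8% higher over all genes. Of the striatal list, 19 of 20 measured genes had at least 2-fold lower RNA in p53LOF neurons, with a median log2 difference of -2.62. Penk had 628 CPM in neurons of replicate 1 and 26.8 CPM in those of p53LOF, and Rarb had 398 and 34.9 CPM. In other neurons alone, which were not matched for type between the libraries, the log2 differences of these 2 genes were -1.62 and -1.47. Those of the other striatal genes named were -0.997 for Meis2, -0.32 for Pde10a, 0.08 for Adcy5, 1.04 for Six3 and 1.17 for Foxp1. The lower level of all neurons was thus not shared by the whole list. Of the cortical list 10 of 16 genes were lower and 2 higher, with a median of -2.39, and Bcl11b had 204 and 18 CPM, with a log2 difference of -2.21 in other neurons alone. Tle4 and Foxp2 of the same list had log2 differences of -0.906 and -0.136 in all neurons, short of 2-fold, and of 0.117 and 1.985 in other neurons alone. Of the interneuron list 5 of 15 were lower and 3 higher.

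The receptor, channel and synaptic lists differed less in RNA. Of the glutamate receptor list 3 of 19 genes were lower and 4 higher, with a median of -0.01, and Gria1 had 1740 CPM in replicate 1 and 653 CPM in p53LOF. Of the potassium channels 5 of 24 were lower and 6 higher, with Kcnk2, a leak channel, at 355 and 53.1 CPM (log2 differences of -2.72 in all neurons and -0.889 in other neurons alone). Of the synaptic adhesion genes 2 of 19 were lower and 2 higher, and Cntnap2, with 14 members, had 2970 and 4030 CPM, a log2 difference of 0.441 that turned to -0.244 in other neurons alone. Of the GABA-A receptors 2 of 11 were lower and 2 higher, of the sodium and calcium channels 2 of 15 each way, of the activity-regulated genes 4 of 12 lower and 2 higher, and of the glia list 0 of 10 lower and 4 higher. Among the 12 genes with most members Celf2 had the largest difference, with 5330 CPM in replicate 1 and 959 CPM in p53LOF, while Rbms3 had 263 and 760 CPM. These differences were of all neurons, whose make-up was not the same in both libraries. The other neurons alone were also of different clusters in each library. In them the log2 difference went from -2.47 to -0.70 for Celf2 and from 1.53 to 0.31 for Rbms3. Gria1 then had the largest of the 12 (-1.36).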

How the data were processed

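The authors processed the reads with Cell Ranger ARC 2.0.0 against mm10 and called peaks in each library on its own. Values in the deposited files are counts: UMIs for genes, and Tn5 cut sites for peaks. Of the nonzero peak entries 82.9% are even in Foxr2 alone replicate 1, since both ends of a fragment can fall in a peak, so intervals on counts are too narrow. Each matrix holds its own peaks, so peak counts were not compared between libraries.

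Nuclei were kept with those of the study's limits that the count matrices allow (at least 400 genes and 400 fragments in peaks, taken as peak counts divided by 2, at most 5% mitochondrial UMIs, and upper limits per library). Its filters on start site enrichment and nucleosome signal were not applied here, so the nuclei kept are not the study's set. Doublets were removed with Scrublet in scanpy 1.11.5, and both libraries were clustered together by Leiden at resolution 0.5. Clusters were named from fixed markers with thresholds set after the data were seen. Overlaps used 1 bp, and nearest genes used transcript starts of GENCODE vM21 (30336 of 30364 autosomal genes of the files matched by identifier). Fold calls used counts summed per class, and no test was made because the counts of 1 library per genotype were analysed. Named genes were the 12 with most members, the 4 leading members of each class, the 10 members with most counts, and list genes with at least 5 members. The members, lists and motifs were chosen with earlier results of these data known. Alternatives were another overlap, a distance from p53LOF peaks, single peak lists, other clusterings, filters and pseudocounts. The 13 vector features were left out of RNA totals. The sequence of the leading member of the other neurons is not reported here.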

Additional observations from a re-analysis of the deposited data

How the results depend on the processing

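The number of members changed most with the peak lists, from 28355 without Foxr2 alone replicate 1 to 62299 without Foxr2 alone replicate 2. Without replicate 2, 53661 peaks (86.1%, beside 59.2% of all peaks) were at least 2-fold higher in neurons and 2764 (4.44%, beside 14.5%) in glia. Between the main neuron classes, 22496 (36.1%, beside 29.8%) were higher in cortical-like and 17970 (28.8%, beside 17.9%) in striatal-like nuclei. In that set 4765 peaks lay near a gene start, and the neuron share of counts was 91.1%, against 64.1% for the other peaks. The neuron share moved beyond its counting interval under every other alternative run. It was 92.5% with 50% of the peak covered by replicate 2, 93.5% with no p53LOF peak within 1000 bp, 91.5% with clusters of replicate 1 alone and 90.5% with doublets kept. The other peaks had 67.4% to 68.4% in these settings. With minimums of 1000 genes and 1000 peak counts it was 96.1%, against 85.4% for the other peaks, so the difference was smaller there. Counts per nucleus in place of CPM gave 534 members higher in glia (3.48%, beside 8.6% of all peaks). A limit of 5000 bp gave 3584 members near a start. Counting genes with 1 or more members gave 663 with lower RNA in p53LOF neurons (16.7%, beside 18.1% of all genes). It gave 552 with higher RNA (13.9%, beside 12.8%), so both shares changed sides against all genes. Comparing other neurons only gave 41 lower (11.5%, beside 15.6%). The remaining fold calls stayed within 1.5 times of the values reported. No paired analysis was possible because the p53LOF group has 1 library and no result came from a test. The p53LOF counts were made over its own peaks, so its signal in the members was not measured.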

Other observations

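Of the 7008 peaks of Foxr2 alone replicate 1 with at least 20 CPM in each of the 4 classes, 6998 (99.9%) overlapped a p53LOF peak, and 7 of the other 10 were members. Of these 7, 6 lay at a gene start and 3 had no p53LOF peak within 10000 bp. At the start of Pogz the nearest p53LOF peak was 10841 bp away, although the gene had 2088 UMIs in p53LOF neurons (81.8 CPM) and 1857 in replicate 1 (56.1 CPM). At the start of Ecpas, a proteasome adaptor, that distance was 12702 bp, with 525 CPM of RNA in p53LOF neurons and 457 CPM in replicate 1. At Klhl24 it was 11234 bp, with 148 and 111 CPM. These 7 were picked after their values were seen, and whether they were closed in p53LOF or missed by its peak calls was not tested.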
